A study of Mus musculus with 120 samples.

Results

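The transcripts described here are those encoded by the mitochondrial genome (mtDNA), measured by mRNA sequencing in soleus, a slow postural muscle, and in heart of mice with mitochondrial mutations. They were taken as every row whose symbol begins with mt-, which gave 37 of 53656 rows in each table. These are 13 protein-coding genes, each called an mRNA below, 2 rRNAs and 22 tRNAs. The study asked how such mutations act on endurance training.

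The strains were compared on a shared C57BL/6Eij (Nnt+/+) background. ANT1 mice are Slc25a4-/-, and so lack the heart and muscle translocator that exchanges ADP and ATP across the inner mitochondrial membrane. The other 3 strains, called the mtDNA strains below, each carry a missense mutation in a gene of the set. ND5 mice (labelled ND5S204F) carry it at mtDNA position 12352, in mt-Nd5. ND6 mice (ND6P25L) carry it at position 13997, in mt-Nd6, and CO1 mice (CO1V421A) at position 6589, in mt-Co1. Mice began at 16 weeks of age and were exercised (called trained) or only handled (called rest) for 8 weeks, with a 45 min run at 50% of maximal capacity on every 2nd day. Mice were killed 6 days after their final run. There were 6 libraries for every combination of strain, treatment and tissue, 96 in all, and by their codes those of one tissue came from separate mice. The control strain was not analysed here, so every strain difference is between mutants.

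Mammalian mtDNA is a compact circle. Each strand is copied into long transcripts, and the tRNAs between the other genes are cut out to free them. The mRNAs encode core subunits of complexes I, III and IV and of ATP synthase, while nuclear genes supply the remaining subunits, and the rRNAs build the ribosome of the organelle. Nearly all of the mRNAs are read from one strand (the H-strand set below), and mt-Nd6 alone comes from the other. Most mitochondrial mRNAs carry a short A tail. In human cells the mRNA of ND6 is known to carry little or none. The libraries here were enriched with oligo(dT), so the amount of an RNA and the length of its A tail cannot be told apart.

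The mutated codons come first, because each lies inside a transcript whose level is given below. Each stretch is the reference sequence of the transcript, 5′ to 3′, from the mouse build GRCm38 (mm10), with the mutated codon in capitals. In mt-Nd5 the stretch is chrM:12321-12383 on the plus strand and the mutation is C611T. In mt-Nd6 it is chrM:13966-14028 on the minus strand and the mutation is C74T. In mt-Co1 it is chrM:6558-6620 on the plus strand and the mutation is T1262C. Positions in these tokens count from 1 at the 5′ end of the transcript.
mt-Nd5: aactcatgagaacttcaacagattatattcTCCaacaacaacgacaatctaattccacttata
mt-Nd6: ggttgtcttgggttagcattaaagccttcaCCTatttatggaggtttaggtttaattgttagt
mt-Co1: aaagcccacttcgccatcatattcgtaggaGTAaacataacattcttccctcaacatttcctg

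Some genes of the set overlap, and no label states whether the libraries were stranded. Reads from an overlap cannot be told apart, nor can reads of mt-Nd6 and of RNA copied from the other strand across it. The overlaps are shown as the plus strand of GRCm38, with the shared bases in capitals. mt-Atp8 and mt-Atp6, both subunits of ATP synthase, share 43 bases (shown within chrM:7912-7984). mt-Nd4l and mt-Nd4, of complex I, share 7 bases (within chrM:10152-10188). In both pairs no tRNA lies between the genes. The rows of such a pair count genes, and do not show separate RNA molecules. The ends of mt-Nd5 and mt-Nd6, on opposite strands, share 14 bases (within chrM:13537-13565).
mt-Atp8 and mt-Atp6: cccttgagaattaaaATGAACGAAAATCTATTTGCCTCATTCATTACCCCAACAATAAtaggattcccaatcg
mt-Nd4l and mt-Nd4: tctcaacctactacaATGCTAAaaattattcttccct
mt-Nd5 and mt-Nd6: ttatcttatactcaaTTAATCTCGAGTAA

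In genome order, on GRCm38, the set begins with the rRNAs mt-Rnr1 (chrM:70-1024) and mt-Rnr2 (chrM:1094-2675), followed by mt-Nd1 (chrM:2751-3707) and mt-Nd2 (chrM:3914-4951). Then come mt-Co1 (chrM:5328-6872), mt-Co2 (chrM:7013-7696), mt-Atp8 (chrM:7766-7969), mt-Atp6 (chrM:7927-8607) and mt-Co3 (chrM:8607-9390). The rest of the H-strand mRNAs are mt-Nd3 (chrM:9459-9806), mt-Nd4l (chrM:9877-10173), mt-Nd4 (chrM:10167-11544), mt-Nd5 (chrM:11742-13565) and mt-Cytb (chrM:14145-15288), and mt-Nd6 (chrM:13552-14070) lies on the minus strand between the last of these. None of these genes has introns.

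All 22 tRNAs, from 59 to 75 bases long, were listed at 0 in all 96 libraries and are not described further. The 2 rRNAs and 13 mRNAs had counts in every library, and all 15 passed the filter on low counts.

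Totals were 10.2 to 20.75 M counts per library in soleus and 19.65 to 26.5 M in heart. Slc25a4, the gene deleted in ANT1 mice, separated the strains as labelled: it ranged from 4.97 to 22.1 CPM (counts-per-million of the scaled library) in 12 ANT1 soleus libraries and from 1.89 to 6.13 CPM in 12 ANT1 hearts, against at least 2170 CPM in any soleus and 471 CPM in any heart of the mtDNA strains. Soleus libraries held the slow-fibre markers at a summed 8615 to 21387 CPM and the fast-fibre markers at 12199 to 34359 CPM. At rest the slow-fibre markers ran from 8615 to 13319 CPM in ANT1 soleus and from 11691 to 21387 CPM in the mtDNA strains. The part of fibre types in the strain differences was not tested. The heart of ND5 mouse B80 stood apart. Its 6 cardiomyocyte markers summed to 4494 CPM, against 26856 to 61165 CPM in the other 47 hearts, while its 6 red blood cell markers summed to 116227 CPM, within the range of the hearts (774.4 to 131944 CPM). The labels place mouse B80 at rest in heart and in the trained group in soleus.

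Reads of 7 members were shared with other rows of the tables. The deposited values are expected counts, in which a read that fits several genes is divided among them. The counts of mt-Nd1, mt-Nd2, mt-Nd5, mt-Nd6, mt-Cytb, mt-Atp8 and both rRNAs were whole numbers in every library. Those of mt-Co1, mt-Co2, mt-Co3, mt-Atp6, mt-Nd3, mt-Nd4l and mt-Nd4 were fractional in most libraries, except that mt-Nd4 was whole in 45 of 48 soleus and 35 of 48 heart libraries. They became whole (within 0.02) when 1 or 2 rows named after the clones RP23-8J15 and RP23-407K8 were added, in 48 of 48 libraries of each tissue (47 of 48 hearts for mt-Co1). On average the mt- row held 98.8% of such a pool in soleus and 98.4% in heart for mt-Co1, and nearly the whole pool for mt-Nd4. For the others it held less: 72.8% and 43.9% for mt-Co2, 46.2% and 20.7% for mt-Co3, 19.7% and 21.4% for mt-Atp6, 19.8% and 12.7% for mt-Nd4l, and 11.5% and 15.3% for mt-Nd3 (soleus and heart, in that order).

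**Figure D1:**
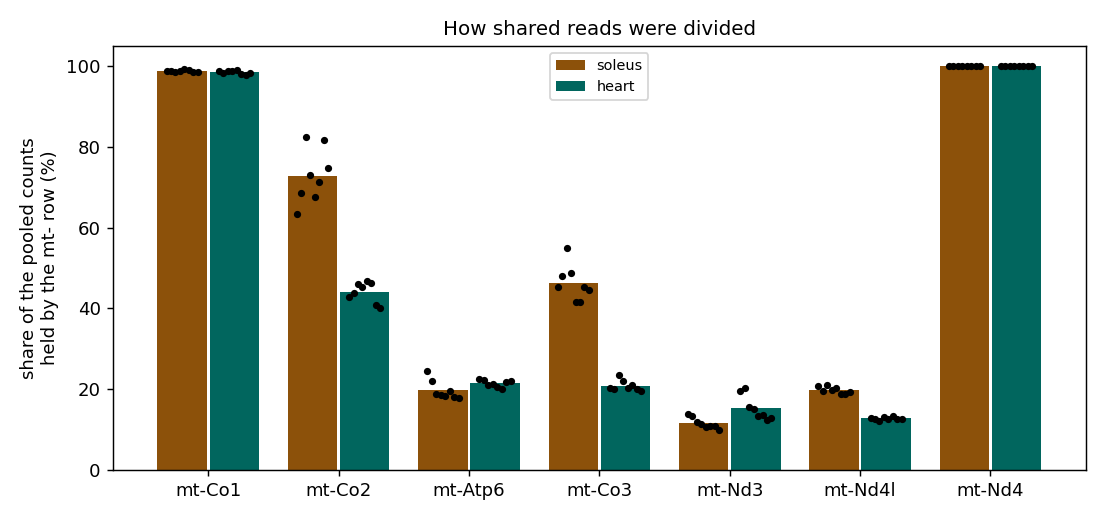
Share of the pooled counts held by the mt- row (%), for the 7 members that shared reads with clone-named rows. Bars are means over 48 libraries of a tissue, starting at 0, and points are the means of the 8 strain and treatment groups. mt-Co1 and mt-Nd4 keep almost all of their reads, while mt-Atp6, mt-Nd3 and mt-Nd4l keep between 11.5% and 21.4% on average.

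The lengths implied by the deposited FPKM of rows RP23-8J15.1 to RP23-8J15.7 (494, 681, 678, 783, 359, 319 and 876 bases, heart medians) stood near those of 7 pseudogenes of GENCODE M21 that lie together at chr1:24611535-24616197, on the minus strand. Their lengths are 492, 681, 678, 783, 345, 294 and 876 bases. These copies of mtDNA matched mt-Co1, mt-Co2, mt-Atp6, mt-Co3, mt-Nd3, mt-Nd4l and mt-Nd4 with 2 differing bases in 4140 aligned. No source used here pairs the clone names with those pseudogenes. Values are given as deposited, and "with shared reads added" marks values in which the clone-named rows were counted with their member.

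Levels were ordered per kilobase of full annotated length, with shared reads added, as mean CPM per kilobase over 48 libraries. mt-Co1, which holds the oxygen-reducing site of complex IV, was highest in both tissues, at 70093 in soleus and 72082 in heart. Next in soleus came mt-Co3 (40848), mt-Co2 (37402) and mt-Atp6 (31634), then mt-Nd1, mt-Cytb, mt-Nd4 and mt-Nd2 between 24461 and 15397. mt-Nd3, mt-Nd5, mt-Nd4l, mt-Nd6 and mt-Atp8 lay between 8426 and 5325, and the rRNAs lowest, at 4364 for mt-Rnr2 and 2056 for mt-Rnr1. In heart mt-Co2 (48624) stood above mt-Co3 (46214), in 44 of 48 libraries, and mt-Rnr2 (8142) stood among the mRNAs. The means pool the strains. At rest mt-Nd1 stood 5th and mt-Cytb 6th in ANT1 soleus only, and the reverse held in soleus of the mtDNA strains and in heart of all 4 strains. Several neighbours did not keep their order from library to library: in soleus mt-Nd1 exceeded mt-Cytb in 18 of 48 libraries and mt-Nd6 exceeded mt-Atp8 in 23, and in heart mt-Nd5 exceeded mt-Rnr2 in 27 and mt-Nd6 exceeded mt-Rnr1 in 28.

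The order depended on how the reads were counted. On the deposited counts mt-Atp6 stood 9th in both tissues rather than 4th, and mt-Nd3 15th in soleus and 14th in heart rather than 9th. On the deposited FPKM scale mt-Atp8 stood 1st in both tissues, because its FPKM were computed over an effective length of 11.7 bases in soleus and 10.1 in heart, far below its transcript length. Per kilobase with shared reads added it stood 13th in soleus and 15th in heart.

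The mt- rows took a much larger share of the RNA in ANT1 soleus than in that of any mtDNA strain. In resting soleus the share of all counts ran from 35.8% through a median of 37.4% to 47.6% in 6 ANT1 libraries. It ran from 12.9% through 15.6% to 19.3% in ND5, from 19.1% through 20.6% to 23.02% in ND6 and from 16.5% through 18.3% to 21.5% in CO1. No ANT1 library overlapped any of the 18 others. In trained soleus the ANT1 libraries ran from 33.99% through 37.1% to 45.1%, again above all 18 others, which reached 24.8%. The mean difference was 20.7 percentage points at rest and 18.2 points after training (exact permutation test, two-sided, p = 7.43e-06 for each, the smallest that 134596 arrangements allow, adjusted p = 8.92e-05 over 24 share tests).

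**Figure D2:**
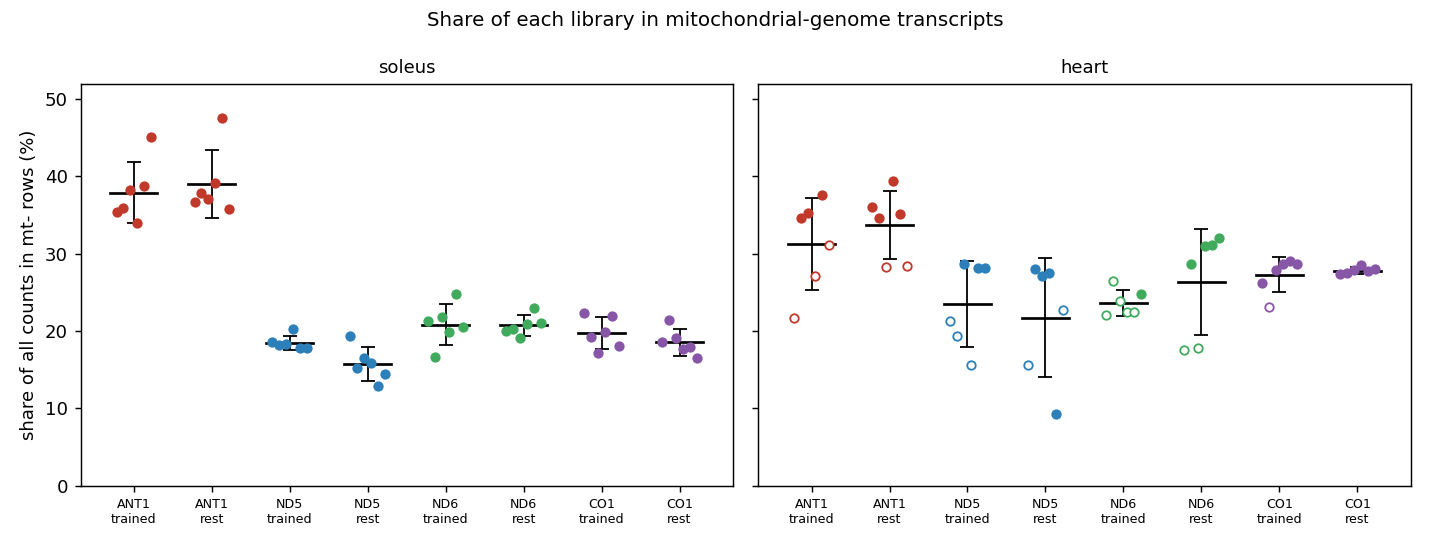
Share of all counts in mt- rows (%) per library, by strain and treatment, in soleus and heart. Points are libraries, bars the mean and SD of 6, and open points in heart are libraries with over 5000 CPM of summed atrial markers. ANT1 soleus libraries lie between 33.99% and 47.6%, above all 36 of the mtDNA strains.

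Each of the 15 measured members rose in ANT1 soleus, at rest and after training. At rest 22.4% of all 13935 genes tested were called higher, at an adjusted p under 0.05 by edgeR, and after training 21.1% were higher. The members' log2 differences from the mtDNA strains ran from 1.204 to 2.04 at rest (median 1.64) and from 0.77 to 1.64 after training (median 1.44), while the median over all genes was -0.04 at rest and -0.02 after training. In bulk tissue, fewer cells of a type and less RNA per cell cannot be told apart.

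The complex I transcripts were led by mt-Nd1, a membrane-arm subunit beside the quinone site. It measured 42392 to 72825 CPM (median 47498) in 6 ANT1 soleus libraries at rest, against 8409 to 18290 CPM (median 13903) in 18 of the mtDNA strains, with no overlap. Its log2 difference was 1.88 ± 0.10 (SE, edgeR adjusted p = 1.63e-19). The proton-pumping subunits mt-Nd2, mt-Nd4 and mt-Nd5 rose by 1.71, 1.65 and 1.54 on the same scale. The small subunits mt-Nd3 and mt-Nd4l rose by 1.86 and 1.61 as deposited, and by 1.54 and 1.56 with shared reads added.

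mt-Nd6, the only mRNA of the other strand, stood close to mt-Cytb and mt-Nd5, with the smallest rises of the mRNAs. It measured 4568 to 7248 CPM (median 4751) in ANT1 soleus and 1272 to 2613 CPM (median 1851) in the mtDNA strains, without overlap. The log2 difference was 1.51 ± 0.09 (SE, edgeR adjusted p = 2.81e-18).

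Of complex IV, mt-Co1 ran from 204521 to 320258 CPM (median 221684) in resting ANT1 soleus, against 33549 to 81257 CPM (median 66627) in the mtDNA strains. Its groups stood far apart, as did those of mt-Co2 and mt-Co3, which make the rest of the mtDNA-encoded core. mt-Co3 (21729 to 44257 CPM in ANT1, against 7029 to 12156 CPM) rose by 1.67, or 1.72 with shared reads added. mt-Co2 rose by 1.54 as deposited and by 1.81 with shared reads added.

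mt-Cytb, the mtDNA-encoded subunit of complex III, measured 43418 to 71868 CPM (median 45612) in resting ANT1 soleus, against 10498 to 23156 CPM (median 18216) in the mtDNA strains, and rose by 1.53. The ATP synthase transcripts mt-Atp8 and mt-Atp6 rose by 1.63 and 2.04, but mt-Atp6 by 1.64 with shared reads added.

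The rRNAs moved unequally. mt-Rnr2, of the large ribosomal subunit, measured 11128 to 20149 CPM (median 12386) in resting ANT1 soleus, against 2237 to 6813 CPM (median 4315) in the mtDNA strains, and rose by 1.74. mt-Rnr1, of the small subunit, measured 2351 to 4631 CPM (median 3056), against 820 to 2411 CPM (median 1356). Its groups overlapped, and its difference was the smallest of the set, 1.204 ± 0.15 (SE, edgeR adjusted p = 9.82e-09). After training mt-Rnr1 rose by 0.77 and mt-Rnr2 by 1.44.

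Soleus libraries also differed in their content of connective tissue. The 8 fibroblast and tendon markers summed to 240 to 558 CPM in the 12 ANT1 libraries, against 370 to 3966 CPM in the 36 of the mtDNA strains. The 7 libraries of the mtDNA strains that lay inside the ANT1 range had mt- shares of 18.3% to 21.97%, against 33.99% to 47.6% in ANT1. With these markers as a covariate, 15 members were called higher at rest (log2 0.84 to 1.78) and 14 after training. mt-Rnr1 was the exception after training (0.45, edgeR adjusted p = 0.0982). The share of all genes called in this fit is not given here. The part of connective tissue in the ANT1 difference was not tested further.

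In heart the ANT1 difference was smaller and reached fewer members. Of the 15, 4 were called higher at rest, where 0.617% of all 15723 genes tested were, and 6 after training, where 3.45% were. At rest these were mt-Nd2, mt-Nd3, mt-Nd4 and mt-Nd4l, and after training mt-Atp6 and mt-Cytb joined them. The 4 belong to complex I, but its members mt-Nd1, mt-Nd5 and mt-Nd6 were not called (log2 0.68, 0.60 and 0.57 at rest). The remaining mRNAs had log2 differences of 0.57 to 0.83 at rest and 0.42 to 0.70 after training without being called. The rRNAs differed by -0.14 (mt-Rnr1) and 0.29 (mt-Rnr2) at rest, and by -0.39 and 0.27 after training, and were not called. The counts of calls depended on single hearts. At rest 1 member was called without A23, A70 or A72, 2 without A58 and 5 without B80. After training 0 were called without A73, 1 without A69 and 2 without A64, and 3 without each of 13 further hearts (A76, B11, B13, B71, B81, E44, E50, I4, I50, I55, I57, I59 and I63). At an unadjusted p under 0.05 there were 13 members at rest and 11 after training. In either direction 1820 and 3045 of all 15723 genes tested passed that level.

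mt-Nd2 had the largest resting difference in heart among the members that share no reads. It measured 21496 to 43240 CPM (median 33667) in resting ANT1 hearts and 4174 to 24419 CPM (median 17241) in 18 hearts of the mtDNA strains, and the groups overlapped at their edges. The log2 difference was 0.99 ± 0.24 at rest (SE, edgeR adjusted p = 0.0218) and 0.94 ± 0.24 after training (edgeR adjusted p = 0.016). mt-Nd3 measured 744 to 1579 CPM (median 1194) in resting ANT1 hearts and 194 to 777 CPM (median 593) in the mtDNA strains, again with a small overlap, a difference of 1.05 (edgeR adjusted p = 0.00506). With shared reads added it was 0.55 (edgeR adjusted p = 0.337). This call rested on how the reads were divided: the mt- row held 19.4% of the mt-Nd3 pool in resting ANT1 hearts, against 12.2% to 15.4% in the resting hearts of the mtDNA strains. With shared reads added, 3 members were called at rest and 4 after training, where 0.598% and 3.44% of genes were. mt-Co1 ran from 94800 to 196935 CPM (median 173416) in resting ANT1 hearts and from 21880 to 137238 CPM (median 110531) in the mtDNA strains, with overlap, and was not called (0.66, edgeR adjusted p = 0.281).

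**Figure D3:**
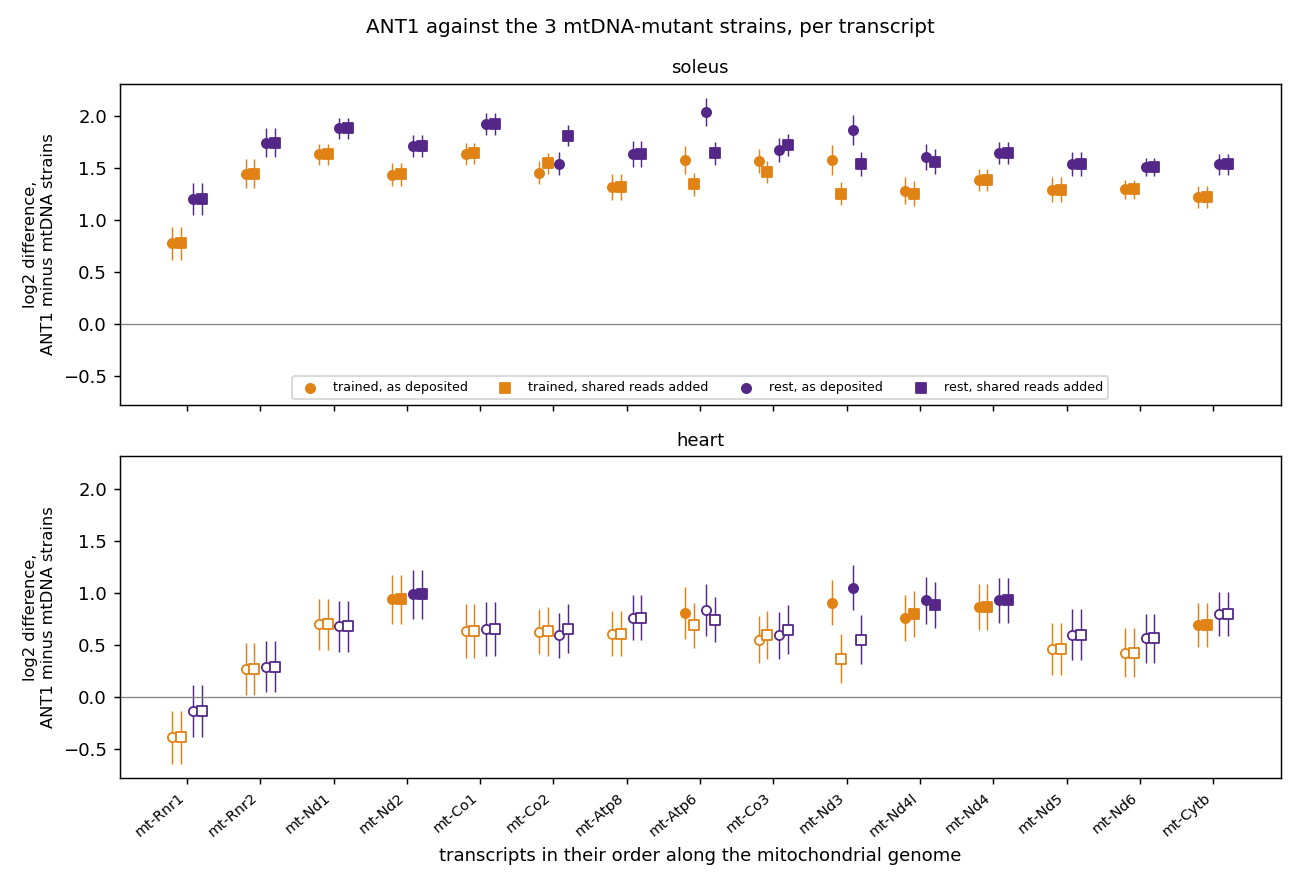
Log2 difference of each transcript, ANT1 minus the mean of the mtDNA strains, with its SE, in the order of the genes along mtDNA, trained and rest, as deposited and with shared reads added. Filled symbols passed an adjusted p under 0.05. In soleus all 15 transcripts lie above 0.77 in both treatments, and in heart mt-Rnr1 lies below 0.

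The mt- share in heart moved with atrial markers. The 8 markers of atrial myocytes summed to at most 4138 CPM in 29 hearts and to at least 9751 CPM in 18, leaving B80 aside. The groups held uneven numbers of hearts high in these markers, 0 of 6 in resting CO1 and 5 of 6 in trained ND6, for example. Over all hearts the ANT1 share exceeded that of the mtDNA strains by 8.40 points at rest and 6.41 after training (exact permutation test, p = 0.00587 and 0.00522, adjusted p = 0.0282 for each). The calls rested on single hearts: without ANT1 mouse A23, A58, A70 or A72 at rest, or A64, A69, A73 or A76 after training, the adjusted p missed 0.05 (up to 0.0694 and 0.0913). Without B80 the difference at rest was 7.45 points (adjusted p = 0.0251, exact permutation test). Among the 29 hearts low in atrial markers, the 4 resting ANT1 libraries ran from 34.7% to 39.4%, and 13 of the mtDNA strains from 27.2% to 32.1%. After training 3 ANT1 libraries ran from 34.7% to 37.7%, and 9 of the mtDNA strains from 24.8% to 29.1%. The groups did not overlap in either treatment (7.68 points, exact permutation p = 0.00042, adjusted p = 0.00378, and 8.04 points, exact permutation p = 0.00455, adjusted p = 0.0143). Here and below, adjusted p within hearts low or high in atrial markers cover only the smaller set of tests run in those hearts.

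Among hearts high in atrial markers, the trained ANT1 libraries ran from 21.6% to 31.2% and those of the mtDNA strains from 15.6% to 26.4%, which overlapped (4.77 points, n = 3 and 9, exact permutation p = 0.0773). At rest the 2 ANT1 hearts stood at 28.4% and 28.5%, and 4 of the mtDNA strains from 15.7% to 22.7%. With the atrial markers as a covariate, the members' median log2 difference in ANT1 heart was 0.82 at rest and 0.58 after training. Without it the medians were 0.68 and 0.64. The SE at rest ran from 0.147 to 0.177 with the covariate, against 0.211 to 0.258 without it. In this fit 13 members were called higher at rest and 11 after training. The share of all genes called in it is not given here. The labels give no part of the heart, and the part of atrial tissue in these differences was not tested further.

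**Figure D4:**
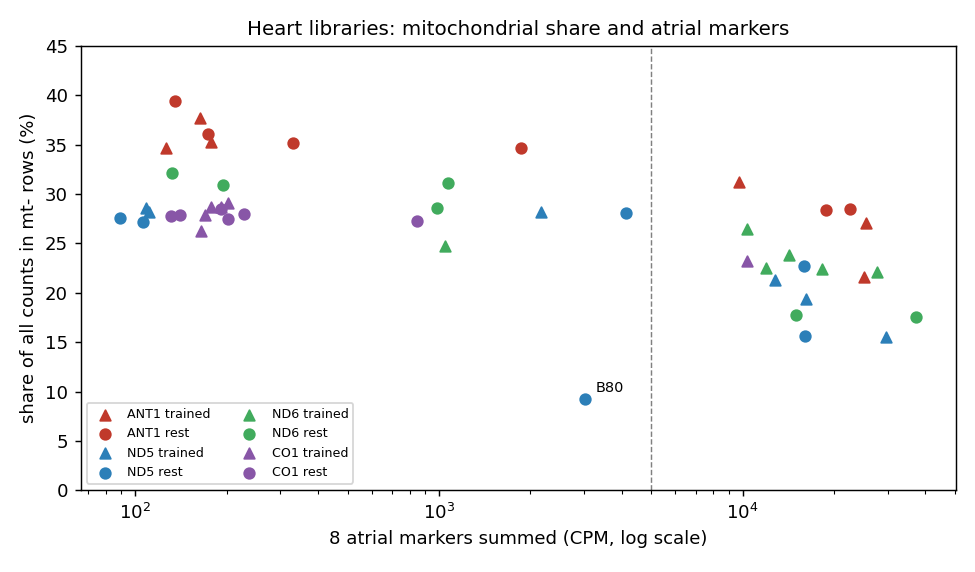
Share of all counts in mt- rows (%) against the summed CPM of 8 atrial markers (log scale) in 48 heart libraries, with the line at 5000 CPM. Triangles are trained and circles resting mice, coloured by strain. Left of the line ANT1 hearts lie between 34.7% and 39.4%, above the others, and B80 lies alone at 9.23%.

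The ANT1 difference was larger in soleus than in heart for most members. In a fit over both tissues, the difference between the tissues was called for 13 members at rest, where 5.53% of all 16172 genes tested were called in that direction, and for 8 after training, where 4.11% were. At rest it was largest for the rRNAs, with 1.49 ± 0.30 for mt-Rnr2 and 1.38 ± 0.31 for mt-Rnr1 on the log2 scale (SE), and mt-Co1 had 1.30 ± 0.29. The members that missed the threshold at rest, mt-Nd2 and mt-Nd4l (0.76 and 0.71, edgeR adjusted p = 0.0624 and 0.085), are among the 4 called in heart. After training the differences ran from 0.54 for mt-Nd2 to 1.22 for mt-Rnr2, and mt-Nd1, mt-Nd5, mt-Nd6, mt-Co1, mt-Co2, mt-Co3 and both rRNAs were called. Adding the shared reads gave 13 calls at rest (5.13% of genes) and 9 after training (3.9% of genes). With the mouse code as a replicate block, 9 were called at rest and 8 after training. At rest mt-Atp8, mt-Cytb, mt-Nd3 and mt-Nd4 were lost under the block (limma adjusted p = 0.0501, 0.0604, 0.0918 and 0.0962). Without the heart of mouse B80, 15 were called at rest and 9 after training. The part of the atrial content of the hearts in this comparison was not tested.

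The tissues could also be compared within a mouse. Of 19 mice with both tissues 18 were used, leaving out B80 for its labels. In 3 ANT1 mice the mt- share was higher in soleus than in heart by 8.05 points on average (SD 5.95), in 3 of 3. In 2 of these the heart was high in atrial markers, A17 (14.25 points higher in soleus) and A76 (7.52 points), and in A58, whose heart was low in them, the difference was 2.38 points. In 15 mice of the mtDNA strains it was lower in soleus by an average of -7.29 points (SD 4.47), in 14 of 15 (exact sign-flip permutation p = 0.000244). Their differences ran from -14.66 to -2.92 points in 10 mice with hearts low in atrial markers and from -6.07 to 3.65 points in 5 with hearts high in them. The ANT1 test cannot go below an exact permutation p of 0.25. With shared reads added 2 of the 3 ANT1 mice were higher in soleus.

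Averaged over strains and treatments, the rRNAs were lower in soleus than in heart, with log2 differences of -1.16 ± 0.09 for mt-Rnr1 and -0.88 ± 0.09 for mt-Rnr2 (SE, edgeR adjusted p = 5.38e-20 and 1.44e-14). The median over all genes was -0.07. mt-Nd3 was lower as well (-0.89, and -0.52 with shared reads added). The other called members were closer to the median of all genes or depended on the division of reads. mt-Atp6, mt-Cytb and mt-Nd4 were called lower (-0.33, -0.17 and -0.17), and mt-Atp8 higher (0.25). mt-Co3, mt-Nd4l and mt-Co2 were called higher as deposited (1.04, 0.47 and 0.40), and turned to -0.13, -0.16 and -0.35 with shared reads added, of which the value of mt-Co2 was called (edgeR adjusted p = 6.81e-05). mt-Nd1, mt-Nd2, mt-Nd5, mt-Nd6 and mt-Co1 had values from -0.16 to -0.02 and were not called. All these averages join strains that differed between the tissues in opposite directions. Within a mouse the mt- share in soleus minus heart averaged 8.05 points in 3 ANT1 mice and -7.29 points in 15 of the mtDNA strains. For the uncalled members the ANT1 difference at rest was larger in soleus by 0.76 (mt-Nd2) to 1.30 (mt-Co1). Their small averages therefore do not show equal levels in soleus and heart within a strain. In all 4 of 15 were called higher and 6 lower as deposited, where 40.5% and 46.3% of genes were, and 1 higher and 7 lower with shared reads added (40.2% and 46.7% of genes). With the mouse code as a replicate block mt-Cytb and mt-Nd4 lost their calls (limma adjusted p = 0.0641 and 0.1).

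Ratios within a library do not depend on its scaling. That of the rRNAs to each other was lower in ANT1 in both tissues. The log2 of mt-Rnr1 over mt-Rnr2 ran from -2.32 through -2.09 to -1.93 in resting ANT1 soleus, against -1.92 to -1.33 over the mtDNA strains, with no overlap. The mean difference was -0.53 at rest and -0.67 after training (exact permutation p = 7.43e-06, adjusted p = 5.1e-05 over 48 ratio tests, for each). In heart the difference was -0.38 at rest and -0.57 after training, and the groups overlapped (exact permutation test, adjusted p = 0.000917 and 0.000392). Among hearts low in atrial markers it was -0.50 and -0.90, without overlap, and among trained hearts high in them -0.24, with overlap (exact permutation test, adjusted p = 0.23). CO1 hearts had the highest ratio of the strains, -1.08 ± 0.15 at rest (SD, n = 6).

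The log2 ratio of the rRNAs to the 13 mRNAs was lower in ANT1 hearts than in those of the mtDNA strains, with a difference of -0.63 at rest (mean -4.29 against -3.67) and -0.61 after training (exact permutation test, adjusted p = 0.000576 and 0.000551). Among hearts low in atrial markers it was -0.45 and -0.50 (exact permutation test, adjusted p = 0.0271 and 0.129), and among trained hearts high in them -0.73 (adjusted p = 0.05 by the same exact test). In soleus the ratio differed by -0.13 and -0.21, which missed the threshold (exact permutation test, adjusted p = 0.334 and 0.0662). Whether the change of this ratio differs between soleus and heart was not tested.

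mt-Nd1 against mt-Cytb, at opposite ends of the H-strand set, showed a shift in soleus. The log2 ratio ran from -0.04 through 0.00 to 0.13 in resting ANT1 libraries, against -0.53 to -0.18 in the mtDNA strains, with no overlap at rest or after training (differences 0.35 and 0.41, exact permutation test, adjusted p = 5.1e-05 for each). In heart it differed by -0.10 and -0.04 (exact permutation test, adjusted p = 0.181 and 0.736). mt-Nd6 against the 12 H-strand mRNAs was lower in ANT1 in both tissues, by -0.27 and -0.23 in soleus and by -0.16 and -0.26 in heart, at rest and after training (exact permutation test, adjusted p = 0.000134 to 0.0294). The heart value at rest lost its call with shared reads added (-0.14, adjusted p = 0.0535 by the exact permutation test). Neither heart value was called within hearts low in atrial markers (-0.17 at rest and -0.26 after training, exact permutation test, adjusted p = 0.112 and 0.0653), nor within trained hearts high in them (-0.26, adjusted p = 0.217 by the same test).

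mt-Atp8 against mt-Atp6 shows how far the division of reads can carry a ratio. As deposited it was lower in ANT1 soleus, by -0.40 at rest. With shared reads added it differed by 0.01 (exact permutation test, adjusted p = 0.00489 and 0.874). mt-Co1 against mt-Co3 was higher by 0.27 at rest (exact permutation test, adjusted p = 0.0434) and by 0.10 after training, and by 0.21 and 0.19 with shared reads added.

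**Figure D5:**
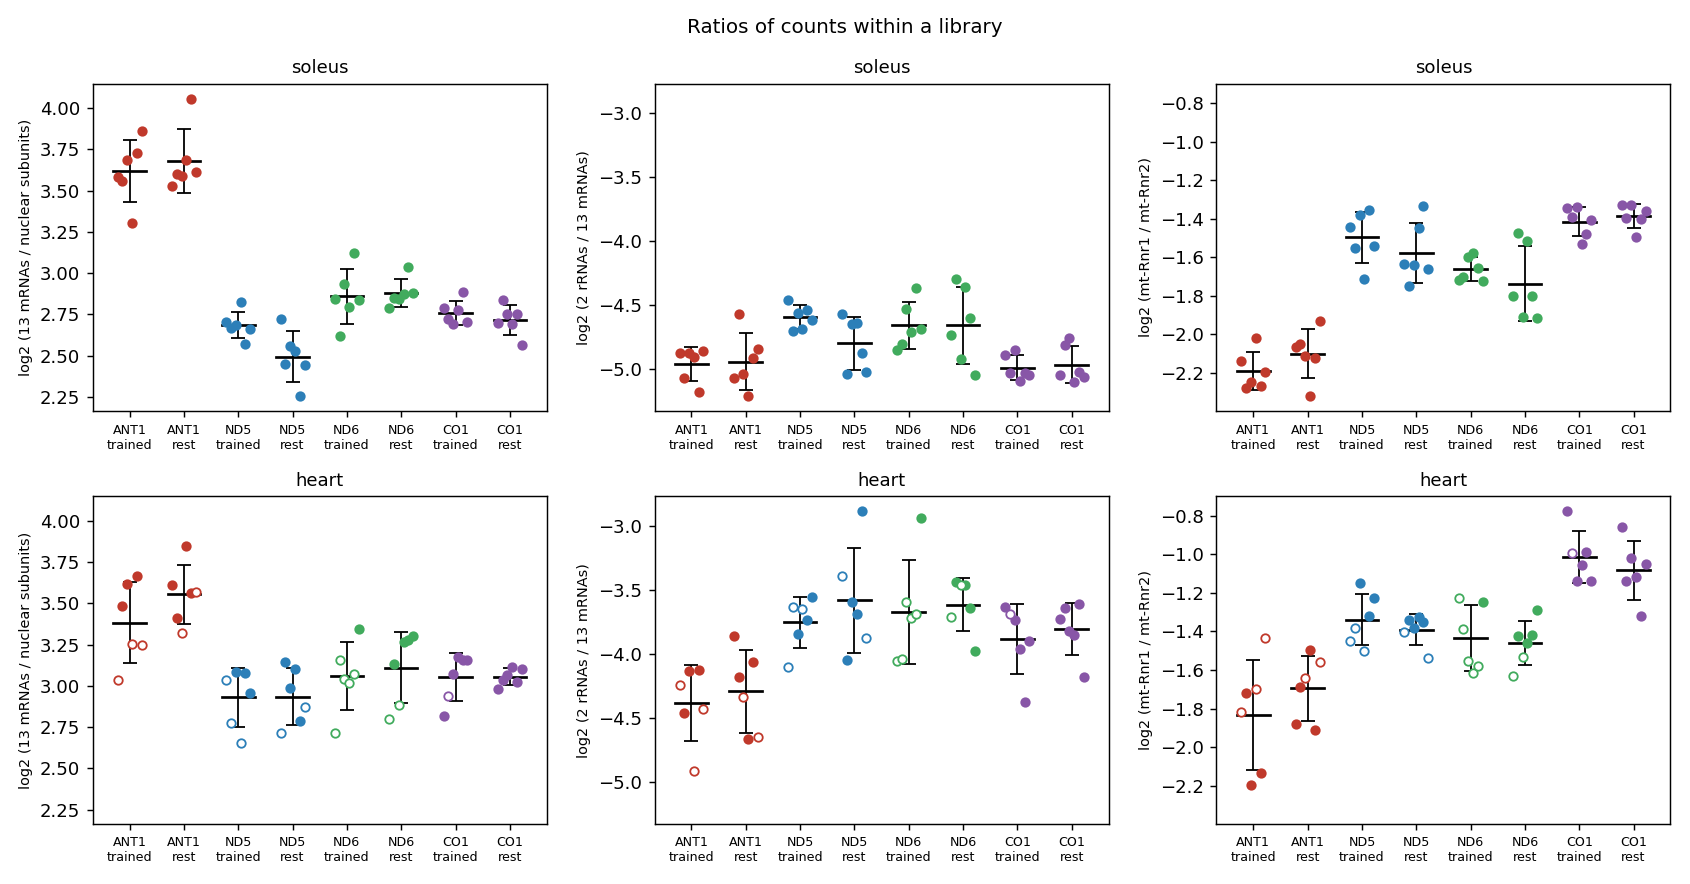
Log2 ratios of counts within a library: the 13 mRNAs over the nuclear subunits, the 2 rRNAs over the 13 mRNAs, and mt-Rnr1 over mt-Rnr2, by strain and treatment in soleus (top) and heart (bottom). Points are libraries, bars the mean and SD of 6, and open points are hearts with over 5000 CPM of atrial markers. In the right panels ANT1 soleus lies at or below -1.93.

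The mtDNA-encoded mRNAs rose more than their nuclear partners. The log2 ratio of the 13 mRNAs to 72 nuclear subunits of complexes I, III, IV and ATP synthase ran from 3.53 to 4.06 (median 3.61) in resting ANT1 soleus, above all 18 libraries of the mtDNA strains, which reached 3.04. The difference was 0.98 at rest and 0.85 after training, and in heart 0.52 and 0.37 (exact permutation test, adjusted p = 5.1e-05, 5.1e-05, 5.1e-05 and 0.00218). Among hearts low in atrial markers the differences were 0.49 and 0.50 (exact permutation test, adjusted p = 0.00483 and 0.0261), and among trained hearts high in them 0.24 (adjusted p = 0.217 by the same test). The nuclear subunits themselves were also higher in resting ANT1 soleus, where 22.4% of all genes were called higher: 36 of 36 of complex I (median log2 0.83), 9 of 9 of complex III (0.72), 12 of 12 of complex IV (0.80) and 15 of 15 of ATP synthase (0.75). Ndufs8, which binds iron-sulphur clusters of complex I, had 1.14, Cox4i1 of complex IV 0.90, Cyc1 of complex III 0.85 and Atp5g1, of the ATP synthase ring, 1.15. In resting heart the medians of the 4 lists lay between 0.21 and 0.26.

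Genes that make and handle mitochondrial RNA were higher in resting ANT1 soleus in part, to be read against the same 22.4% of all genes. Of 17 for transcription and replication of mtDNA, 10 were called higher (median log2 0.22). They include Mrpl12 (0.80), a ribosomal protein that also binds the polymerase, Mterf2 (0.71), a factor of the termination factor family, Ssbp1 (0.39), which binds single-stranded mtDNA, and Tefm (0.43), the elongation factor. Of 18 for RNA processing and modification, 14 were higher (median 0.34). Among them Hsd17b10, a subunit of the RNase P that frees tRNAs at their 5′ ends, had 0.78, and Mrm3, which methylates the large rRNA, 0.76. Of 16 for stability and decay, 10 were higher and 1 lower (median 0.45). Tbrg4 had 0.82, Fastk, needed for the mRNA of ND6, 0.62, Lrpprc, which protects the mRNAs, 0.62, and Grsf1, of the RNA granules, 0.51. In resting heart the medians of the 3 lists were 0.09, 0.10 and 0.07.

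The mtDNA strains differed from each other only in part. In resting soleus 11 of 15 members were called lower in ND5 than in ND6, where 4.51% of genes were called lower, and 15 with shared reads added. mt-Nd5 ran from 4574 through 6902 to 10579 CPM in 6 ND5 libraries and from 10651 through 12382 to 13694 CPM in 6 ND6 libraries, with no overlap. Its log2 difference was the largest, -0.81 ± 0.16 (SE, edgeR adjusted p = 0.00292). mt-Nd6 ran from 1272 through 1429 to 1836 CPM in ND5 and from 2073 through 2325 to 2613 CPM in ND6, again apart (-0.65, edgeR adjusted p = 0.00243). The mt- share was lower by -5.03 points (exact permutation p = 0.00433, adjusted p = 0.0282).

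These libraries differed in connective tissue as well. The fibroblast and tendon markers summed to 902 to 3966 CPM in resting ND5 soleus, against 370 to 918 CPM in ND6. The ND5 library lowest in these markers (mouse B10) had the highest mt- share of its group, 19.3%, and the one highest in them (B70) the lowest, 12.9%. With the markers as a covariate edgeR called 0 of 15 members (median log2 -0.395), and 10 had an unadjusted p under 0.05. The numbers of all genes in that fit are not given here. The part of these cells in the difference was not tested further. Without B10, calls went up to 19, counted over the 15 members in each of the 3 pairs of mtDNA strains. The number of all genes called without B10 is not given here. Among the other pairs at rest and all pairs after training, edgeR and DESeq2 called 0 members in soleus and heart. At an unadjusted p under 0.05, edgeR had 8 for ND5 minus CO1 and 6 for ND6 minus CO1 in resting soleus. There 3080 and 286 of all 13935 genes passed that level. In trained soleus edgeR had 3 for ND5 minus ND6 and 1 for ND6 minus CO1 (793 and 361 genes). In resting heart edgeR had 1 for ND5 minus CO1 (5193 of 15723 genes), where 11.2% of all genes were called. In ND6 minus CO1 of trained heart 0.566% of genes were called, and in the remaining pairs 0%.

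Within the pool of the 13 mRNAs, as deposited and over all libraries of a tissue and treatment, the mutated transcripts differed little. Their difference from the other mtDNA strains was at most 0.19 on the log2 scale. mt-Nd5 over the 13 mRNAs was lower in resting ND5 soleus than in ND6 and CO1, with a difference of -0.19 on the log2 scale (mean -4.18 against -3.99, exact permutation test, adjusted p = 0.0182), and -0.10 after training (adjusted p = 0.123 by the same exact test). In heart it differed by 0.10 in both treatments (exact permutation test, adjusted p = 0.181 and 0.556). Among hearts low in atrial markers it differed by 0.20 at rest and -0.02 after training (exact permutation test, adjusted p = 0.0715 and 0.873). Among trained hearts high in them it differed by 0.21 (adjusted p = 0.573 by the same test). mt-Nd6 over the mRNAs was higher in trained ND6 soleus by 0.16, with no overlap with the 12 others (exact permutation test, adjusted p = 0.000287). With shared reads added this difference was 0.15 and the groups overlapped (adjusted p = 0.000862 by the same exact test). As deposited the ratio differed by 0.09 in resting ND6 soleus, and by 0.09 and 0.11 in heart, short of the threshold. mt-Co1 over the mRNAs was higher in CO1 hearts, by 0.10 at rest and 0.09 after training (exact permutation test, adjusted p = 0.00172 and 0.00626), and differed by 0.02 and 0.03 in soleus. Among hearts low in atrial markers the CO1 values were 0.09 and 0.07 (exact permutation test, adjusted p = 0.0357 and 0.183).

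Training changed no member past the threshold. In soleus and heart, edgeR called 0 of 15 members in any strain, on average over the strains, or as a difference between ANT1 and the mtDNA strains, and DESeq2 called 0 as well; 0 of 13935 and 0 of 15723 genes were called in those comparisons. In ND5 soleus 10 of 15 members had an unadjusted p under 0.05, where 2086 of all 13935 genes did. The log2 differences were 0.18 to 0.57 for the 15 (median 0.348), with a lowest edgeR adjusted p of 0.171. The fibroblast and tendon markers summed to 476 to 2057 CPM in trained ND5 soleus, against 902 to 3966 CPM at rest. With these markers as a covariate 3 members had an unadjusted p under 0.05 (median 0.235, lowest edgeR adjusted p = 0.99). The number of all genes at that level in this fit is not given here, and the part of these cells in the difference was not tested further. mt-Rnr1, with the largest difference without the covariate, measured 1559 through 1686 to 1986 CPM in trained ND5 soleus and 820 through 1110 to 1737 CPM at rest, with overlap. The mt- share there ran from 17.8% through 18.2% to 20.2% in trained mice and from 12.9% through 15.6% to 19.3% at rest, with overlap (2.75 points, exact permutation p = 0.0152, adjusted p = 0.0594). The difference was 3.51 points with shared reads added (adjusted p = 0.0445, exact permutation test). Without B10 in the resting group, 6 calls were made, counted over the 15 members in each of 4 strains. The number of all genes called without B10 is not given here. The share difference in ND5 was then 3.47 points (adjusted p = 0.013, exact permutation test). In the other strains and in heart the trained mice differed in share by -2.65 to 1.79 points (exact permutation test, adjusted p from 0.464 to 0.959). In all, 2 members had an unadjusted p under 0.05 for the difference of training between ANT1 and the mtDNA strains in soleus. There 397 of 13935 genes did. No member did in heart, or for training in ANT1, ND6 or CO1 soleus or on average over the strains, by edgeR or DESeq2.

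Trained mice were also classed by the labels as responders or non-responders in soleus. None of the 15 members differed between the classes (log2 0.03 to 0.09, lowest edgeR adjusted p = 0.957, 0 at an unadjusted p under 0.05, and 0 by DESeq2), and 0 of 13843 genes were called.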

How the data were processed

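Messenger RNA enriched with oligo(dT) beads was sequenced from soleus and heart. Per the file headers and values, the authors deposited expected counts per gene and FPKM for each tissue. STAR 2.5.2b, RSEM 1.2.28 and build mm10 are named, per the submitters' processing notes, without stating their roles. Of the 120 labels, 96 libraries matched a column, and 24 columns whose names match no title were not used. The members and lists were chosen with earlier results of these data known. Every mt- gene may be named, with the 4 genes of smallest p in each nuclear list, Slc25a4 as a check of labels, and marker lists.

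Expected counts were rounded, filtered with filterByExpr by group and scaled by TMM. CPM are counts-per-million of the library total times its TMM factor. Tests were edgeR's quasi-likelihood F tests (edgeR 4.0.16, R 4.3.3) with Benjamini-Hochberg adjustment over all genes tested (13935 in soleus, 15723 in heart, 16172 in both, 13843 for responders), and called means an adjusted p under 0.05. The contrast of ANT1 was with the mean of the 3 mtDNA strains. The procedure was tested on simulated data. Shares and log2 ratios were compared by two-sided exact permutation tests, adjusted over 24 share tests and 48 ratio tests. Within hearts low or high in atrial markers, p were adjusted separately, over the smaller set of share or ratio tests run in those hearts. Alternatives used DESeq2 1.42.0, limma 3.58.1, other scalings, no count filter, FPKM, marker covariates and each library left out. The addition of shared reads, the split of hearts at 5000 CPM of atrial markers and the fibroblast covariate and the fit over both tissues without the heart of B80 were chosen after seeing the data. The tables list genes in different orders and were joined by symbol. Sequences and lengths were read with python 3.11.15, numpy 2.4.6, pandas 2.3.3 and biopython 1.88.

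No pair of libraries was identical among 1128 in each tissue, and the lowest chi-square per degree of freedom between libraries was 5.70 in soleus and 4.97 in heart. Mouse codes pair 19 mice across the tissues, B80 among them. The consensus correlation within a mouse, which limma estimated after fitting the group means, was 0.0376. Totals averaged 14.7 M counts in soleus and 23.1 M in heart, so counting error was small beside the spread between mice.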

Additional observations from a re-analysis of the deposited data

Results flagged for a closer look

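Values of 16 groups of 6 libraries were examined in 160 tests for a library far from the rest, and 13 found one. Chance gives about 1 in 20 such tests. The tests are not independent, since a library can stand apart in several ratios.

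In resting ANT1 soleus, mouse A82 had an mt- share of 47.6%, against 35.8% to 39.2% in the other mice of its group, and a log2 ratio of the 13 mRNAs to nuclear subunits of 4.06, against 3.53 to 3.69. Mouse A4 had a log2 ratio of mt-Nd1 to mt-Cytb of 0.135, against -0.04 to 0.02. In trained ANT1 soleus, A43 had mt-Nd4l over mt-Nd4 at -6.41, against -6.19 to -6.10. In trained ND5 soleus, B80 had a share of 20.2%, against 17.8% to 18.6%. This is the mouse whose treatment label differs between tissues. In resting ND6 soleus, I85 had the mRNAs over nuclear subunits at 3.04, against 2.79 to 2.88. In trained ND6 soleus, I59 had mt-Nd6 over the 12 H-strand mRNAs at -6.11, against -6.37 to -6.29.

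In heart, mouse A58 of the resting ANT1 group had mt-Nd4l over mt-Nd4 at -6.60, against -6.77 to -6.71. I56 of the resting ND6 group had mt-Co1 over mt-Co3 at 3.47, against 3.85 to 3.99. Mouse I4 of the trained ND6 group stood apart in 4 ratios. Its mt-Nd6 over the H-strand mRNAs was -5.89, against -6.45 to -6.25, and its mt-Nd5 over mt-Cytb was -1.96, against -0.997 to -0.868. Its mt-Nd4l over mt-Nd4 was -7.40, against -6.80 to -6.44, and its mt-Co1 over mt-Co3 was 3.05, against 3.73 to 4.12.

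The ANT1 difference was larger in soleus than in heart, in the test of that difference itself, for 13 members at rest and 8 after training.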

How the results depend on the processing

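In soleus the 15 ANT1 calls were kept in both treatments under DESeq2, size factors, no count filter, other scalings and shared reads. The results below changed, and the cause was not tested. In heart the ANT1 calls at rest (4) became 13 with the atrial covariate and 1 with no count filter. After training (6) they became 11 with that covariate, 1 with no filter, 3 with size factors, 3 when scaled to rows other than mt-, and 3 with shared reads added and scaling to all other rows. Calls among the mtDNA strains in resting soleus (11) became 0 with the fibroblast covariate. The shares of all genes called with these covariates are not given here. With the mouse code as a replicate block, the ANT1 difference between tissues had 9 calls at rest (13 without it) and 8 after training (8), and soleus minus heart had 8 (10). With shared reads added, soleus minus heart turned to -0.35 for mt-Co2, -0.13 for mt-Co3 and -0.161 for mt-Nd4l.

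Shares from FPKM gave -5.89 points for ND5 minus ND6 in resting soleus, and for ANT1 heart 7.75 at rest and 5.17 after training, all short of the threshold. With shared reads added, -3.58 (ND5 minus CO1), 2.86 (ND6 minus CO1) and 3.51 (ND5 training) passed it in soleus. In heart -8.30 (ND5 minus CO1, rest) and -4.67 (ND6 minus CO1, trained) did. Hearts high in atrial markers were uneven there: 2 in resting ND5, 0 in resting CO1, 5 in trained ND6 and 1 in trained CO1. Resting ND5 also held B80. Among hearts low in these markers, ND5 minus CO1 at rest was -0.21 points as deposited (exact permutation test, adjusted p = 0.701). In hearts low in atrial markers ND6 minus CO1 at rest turned to 2.87 (exact permutation test, adjusted p = 0.0143), against -1.48 in all. There 4 ND6 hearts ran from 28.6% to 32.1% and 6 CO1 hearts from 27.3% to 28.5%, without overlap. In trained hearts high in atrial markers, ANT1 gave 4.77 and ND5 minus ND6 -4.73 (exact permutation test, adjusted p = 0.0773 and 0.0357).

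Ratios that changed with shared reads were mt-Atp8 over mt-Atp6 in ANT1 soleus (0.0104 at rest, reversed, and -0.01365 after training), mt-Nd4l over mt-Nd4 (-0.13) and mt-Co1 over mt-Co3 (0.19) in trained ANT1 soleus, mt-Co1 over the mRNAs in trained CO1 soleus (0.0287) and mt-Nd6 over the H-strand mRNAs in resting ANT1 heart (-0.14). From FPKM, rRNAs over mRNAs in trained ANT1 soleus gave -0.23. In hearts low in atrial markers, ANT1 gave -0.17 at rest and -0.26 after training for mt-Nd6 over the H-strand mRNAs and -0.50 for trained rRNAs over mRNAs, and trained CO1 gave 0.0718 for mt-Co1 over the mRNAs. In trained hearts high in them, ANT1 gave -0.26 for mt-Nd6, -0.24 for mt-Rnr1 over mt-Rnr2 and 0.24 for mRNAs over nuclear subunits.

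Leaving out 1 library gave 9 to 19 calls over the 3 pairs of mtDNA strains in resting soleus and 0 to 6 over the 4 strains for training in soleus. For ANT1 heart it gave 1 to 6 (rest) and 0 to 9 (trained). The numbers of all genes called in these fits are not given here. Shares ranged in soleus from -3.54 to -2.23 (ND5 minus CO1, rest), 1.75 to 2.80 (ND6 minus CO1, rest), -3.18 to -1.55 (ND5 minus ND6, trained) and 2.18 to 3.47 (ND5 training), and in heart from 7.25 to 9.47 (ANT1, rest), 5.13 to 8.33 (ANT1, trained), -7.35 to -3.58 (ND5 minus CO1, rest) and -4.44 to -3.27 (ND6 minus CO1, trained). Ratios ranged in soleus from 0.21 to 0.30 (mt-Co1 over mt-Co3, ANT1, rest), 0.0766 to 0.13 (mt-Nd6, ND6, rest), -0.23 to -0.17 (rRNAs over mRNAs, ANT1, trained), -0.29 to -0.18 (mt-Atp8 over mt-Atp6, ANT1, trained) and -0.13 to -0.0524 (mt-Nd5, ND5, trained). In ANT1 heart they ranged from -0.19 to -0.13 (mt-Nd6, rest), and for mt-Nd5 over mt-Cytb from -0.19 to -0.15 at rest and -0.32 to -0.20 after training.

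The tRNAs, at 0 in every library, and the 10 candidate symbols for nuclear copies, absent from the tables used, gave no value. Oligo(dT) enrichment, the division of shared reads, unstated strand and the mixed content of atrial and connective tissue limit what levels can show.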

Other observations

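mt-Nd5 over mt-Cytb, neighbouring in mtDNA apart from mt-Nd6, was lower in ANT1 hearts at rest (difference -0.17 on the log2 scale, exact permutation test, adjusted p = 0.0252). After training it was -0.26 (exact permutation test, adjusted p = 0.0692), and -0.32 without ND6 mouse I4 (adjusted p = 0.000535 by the same exact test). In soleus it differed by 0.02 at rest and 0.08 after training (exact permutation test, adjusted p = 0.809 and 0.246).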
